A study of Homo sapiens with 4 samples.

Results

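Isolated RAD21 peaks are the binding sites of the cohesin subunit RAD21 that stood by themselves on the chromosome, with no other RAD21 summit within 150 kb on either side. They were selected by position alone from the peak list of untreated wild-type HCT116 cells, a human colon carcinoma line, and there were 862 of them among 55201 peaks on chromosomes 1 to 22 and 56853 peaks in the whole list. The remaining 54339 autosomal peaks are called other peaks here. The series held 4 libraries without replicates, made by ChIP-seq with a RAD21 antibody, in which crosslinked chromatin is sheared, precipitated and sequenced. The wild-type ChIP library carried no degron and received no auxin. The HCT116_RAD21_AID cells, 1 clone with an auxin-inducible degron on RAD21 and the OsTIR1 ligase, gave a ChIP library without auxins, a ChIP library after 6 h in a mixture of the auxins IAA and α-NAA, 500 μM of each, and a library of unprecipitated chromatin (Input) after the same incubation. The last 3 libraries were not analysed here, apart from any use of the Input in the authors' peak calling. A list of peaks has no transcript levels, so the labelled cell line could not be checked against its marker genes.

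Cohesin is a ring of SMC1, SMC3, RAD21 and a STAG subunit that holds DNA and, loaded with the help of NIPBL, extrudes chromatin loops. The zinc finger protein CTCF binds a long, asymmetric DNA motif and halts cohesin that arrives from one side of it, so that loops are often anchored at CTCF sites that point toward each other. Most cohesin peaks of vertebrate cells therefore lie at CTCF sites, and others lie at active promoters and enhancers. Long AT-rich stretches with few genes hold few of either kind of element.

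The reference sequence at the 10 isolated peaks of highest fold enrichment shows what lay under the strongest members. The fold enrichment is the ChIP pileup over the local background at the summit. Each line gives 60 bases of GRCh38, 5′ to 3′ on the strand of the site, with a 20-base match to a CTCF matrix in capitals. The matrix was counted from sites at other peaks, and a site had to lie within 50 bp of the summit.
chr4:132227970-132228029, minus strand, fold 40.1: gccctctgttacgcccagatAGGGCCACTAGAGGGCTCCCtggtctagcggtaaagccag
chr6:81754036-81754095, minus strand, fold 37.7: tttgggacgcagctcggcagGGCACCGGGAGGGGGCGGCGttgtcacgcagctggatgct
chr7:96075581-96075640, plus strand, fold 33.7: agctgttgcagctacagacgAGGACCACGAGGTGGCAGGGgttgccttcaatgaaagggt
chr22:28442388-28442447, minus strand, fold 33.4: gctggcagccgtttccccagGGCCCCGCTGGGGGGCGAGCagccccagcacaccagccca
chr13:106918191-106918250, minus strand, fold 33.1: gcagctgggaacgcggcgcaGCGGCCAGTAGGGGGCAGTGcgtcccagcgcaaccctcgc
chr6:103123177-103123236, minus strand, fold 32.8: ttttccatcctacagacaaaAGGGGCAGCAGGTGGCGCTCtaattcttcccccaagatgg
chr6:119742349-119742408, plus strand, fold 32.7: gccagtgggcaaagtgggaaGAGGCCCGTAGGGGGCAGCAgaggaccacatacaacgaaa
chr9:119556215-119556274, plus strand, fold 27.2: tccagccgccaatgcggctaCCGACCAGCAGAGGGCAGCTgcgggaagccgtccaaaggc
chr15:53197480-53197539, minus strand, fold 26.6: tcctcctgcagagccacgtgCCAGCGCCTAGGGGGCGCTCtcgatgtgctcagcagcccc
chr21:7413882-7413941, plus strand, fold 26.2: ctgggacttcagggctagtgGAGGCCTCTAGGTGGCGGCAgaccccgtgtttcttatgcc
All 10 of these peaks held a match, and 3 of them, on chromosomes 4, 13 and 9, held the exact 12-letter CTCF consensus. The matches on chromosomes 15 and 22 were weak, with scores of 7.18 and 8.18 bits beside the threshold of 6.87. Neither reached 11.6 bits, the stricter threshold that 1% of control windows passed.

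Some weak members without a match are shown for contrast, as 30 bases to each side of the summit on the plus strand. They are the peak in the CDH18 intron that stood farther from any neighbour than all but 1 other isolated peak, and a pair of peaks among the 5 members of lowest fold enrichment.
chr5:20127249-20127309, fold 2.61: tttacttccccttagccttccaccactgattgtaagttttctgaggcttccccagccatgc
chr19:24894240-24894300, fold 1.62: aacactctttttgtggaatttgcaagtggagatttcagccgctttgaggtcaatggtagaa
chr17:24532970-24533030, fold 1.92: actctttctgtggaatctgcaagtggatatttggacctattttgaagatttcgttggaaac
The 100 bases around the CDH18 summit had no further copy in the assembly, whereas those around the summits on chromosomes 19 and 17 had 4 and 81 further exact copies.

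The strongest isolated peak stood at chr4:132227611-132228347, in an intron of a lncRNA gene, with a fold enrichment of 40.1 from 292 ChIP fragments over a background of 6.31. Its neighbours lay 464 kb and 414 kb away, and the nearest protein-coding start, that of the protocadherin gene PCDH10, lay 921 kb away. The next in order, at chr6:81751409-81754376, held 394 fragments and was 2968 bp wide, which made it broad for a member. Its summit was 1265 bp from the start of TENT5A, which encodes a poly(A) polymerase. It ended a run of 4 isolated peaks in which the others had fold enrichments of 6.51 to 7.54.

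Among the remaining members of the top 10, the peak at chr7:96075332-96076102 lay in an intron of DYNC1I1, a dynein intermediate chain gene, with a fold enrichment of 33.7. The peak at chr22:28442041-28442859 lay 660 bp from a start of TTC28, with a fold enrichment of 33.4. The other 6 were intergenic, and the nearest protein-coding starts were those of ARGLU1, GRIK2, MAN1A1, BRINP1, WDR72 and TPTE, at distances between 187 kb for BRINP1 and 3.11 Mb for TPTE. The TPTE neighbour on chromosome 21 had 5 further copies of its summit sequence and an assembly gap within its window.

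Because the members were chosen on the peaks of this one library, their spacing, fold enrichment, width and fragment number are descriptions, and nothing was tested on them. The nearest other summit lay at a median distance of 198 kb, with quartiles of 168 and 257 kb and a largest value of 1.34 Mb. For other peaks the median distance was 10.7 kb. The empty span between the summits to the left and to the right of a member had a median of 548 kb. The farther neighbour was a median of 1.49 times as far away as the nearer one.

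**Figure D1:**
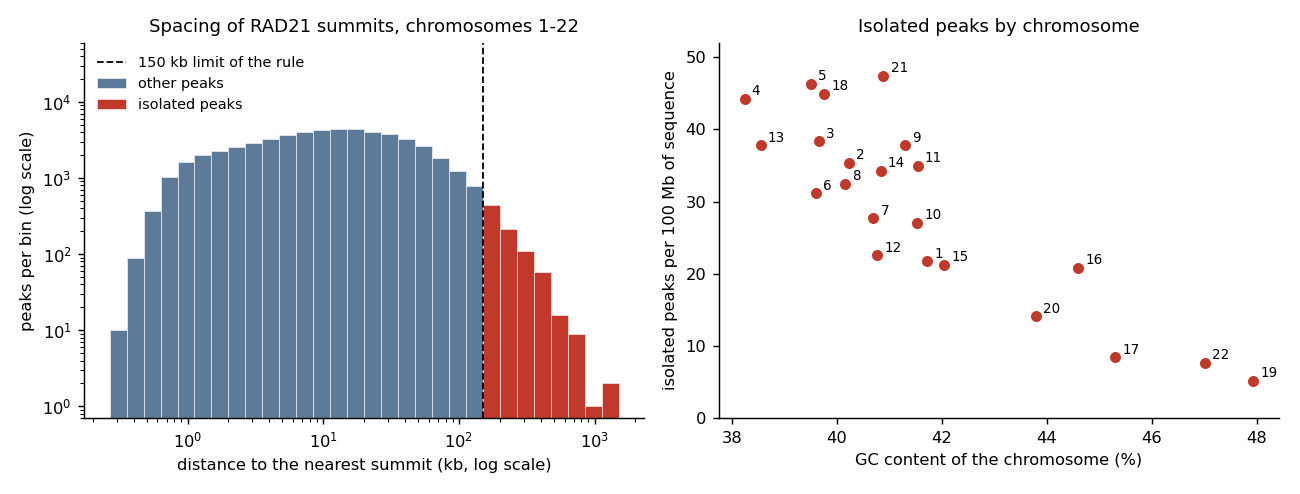
Left, number of autosomal RAD21 peaks by distance to the nearest summit in kb, both axes on a log scale, with isolated peaks to the right of the 150 kb limit. Right, isolated peaks per 100 Mb of sequence against the GC content of each numbered chromosome; the values run from 5.13 on chromosome 19 to 47.4 on chromosome 21.

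The limit cut through a continuous distribution. Just inside it stood peaks on chromosomes 6, 11 and 6 with nearest summits at 150.001, 150.015 and 150.064 kb and fold enrichments of 5.65, 8.41 and 32.8. Just outside it stood peaks on chromosomes 13, 3 and 4 with nearest summits at 149.926, 149.819 and 149.765 kb and fold enrichments of 4.06, 5.65 and 10.9. All 6 held a CTCF matrix match.

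Empty stretches of more than 150 kb between neighbouring summits were common. There were 3816 of them on the autosomes, with a median length of 213 kb, and they covered 36.9% of the sequence outside assembly gaps. Of these stretches, 1423 had an isolated peak at 1 or both ends, and 2393 lay between peaks that each had a close neighbour on the far side. Of the members, 473 followed one another in runs of 2 to 9, and 389 had no isolated neighbour.

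The run of 9 members spanned 3.20 Mb of chromosome 9, and the protein-coding starts nearest to its members were those of ELAVL2, which encodes a neuronal RNA-binding protein, IZUMO3, TUSC1 and CAAP1. Its steps measured between 169.7 and 754 kb. The fold enrichments lay between 3.67 and 18.1, and 8 of the 9 peaks held a CTCF matrix match. Runs of 7 stood on chromosome 1, where the first 2 members lay in NEGR1, a neuronal growth regulator gene, and on chromosome 2 on both sides of SOX11, a transcription factor gene of the developing nervous system.

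The longest empty stretch without an assembly gap measured 1.87 Mb, from 97141082 to 99016036 on chromosome 11, and both of its ends were isolated peaks. The right end, 4913 bp from a start of the contactin gene CNTN5, had a fold enrichment of 20.9 from 143 fragments. The left end had 10.1 from 69 fragments, and its nearest protein-coding start was that of JRKL, 751069 bp away. The body of CNTN5, 1338 kb long, held only 1 further peak, which was isolated too, with a fold enrichment of 7.97. All 3 peaks held a CTCF matrix match.

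The 5 members farthest from any other summit were weaker than the ends of that stretch. On chromosome 15 a peak near the start of the assembled sequence had its only neighbour 1.34 Mb away and a fold enrichment of 3.57. The CDH18 peak on chromosome 5 stood between neighbours at 1.43 and 1.21 Mb, with 2.61 from 17 fragments. The other 3, on chromosomes 16, 18 and 19, had fold enrichments of 3.02, 6.23 and 1.62. Of the 5, those on chromosomes 15 and 18 held a CTCF matrix match.

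The members were spread over all 22 autosomes but unevenly. Chromosomes 2, 4 and 5 held 85, 84 and 84 of them, and chromosomes 17, 19 and 22 held 7, 3 and 3. Per 100 Mb of sequence, chromosomes 21, 5, 18 and 4 had 47.4, 46.3, 44.9 and 44.3, and the GC-rich chromosomes 17, 22 and 19 had 8.44, 7.66 and 5.13. The plot by chromosome shows that the 5 chromosomes with a GC content above 43% had the 5 lowest densities. The same 5 chromosomes had the highest densities of all peaks, from 24.9 per Mb on chromosome 20 to 36.7 on chromosome 17. Of their peaks, 0.143% on chromosome 19 to 0.771% on chromosome 16 were isolated, against 3.16% on chromosome 4. Where peaks are dense the rule itself leaves few members, so these densities are a description.

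Isolated peaks had a median height close to that of other peaks as a whole. Their fold enrichment had a median of 5.65 (order-statistic 95% interval 5.36 to 5.94, n = 862) and quartiles of 3.91 and 8.83, with extremes of 1.62 and 40.1. Other peaks had a median of 5.59 and quartiles of 3.46 and 10.9. Both tails were thinner among the members. Values of 20 or more were recorded for 29 members (3.36%) and 10.0% of other peaks, and one below 3 for 91 members (10.6%) and 16.8% of other peaks. Among the other peaks over 100 kb from a protein-coding start the median was 4.93 (4.89 to 5.07). Of that group, 5.74% reached 20 and 22.5% lay below 3. At least 10-fold enrichment was recorded for 176 members (20.4%), beside 27.4% of all autosomal peaks, and nothing is read from these shares, as the rule used the same contrast.

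**Figure D2:**
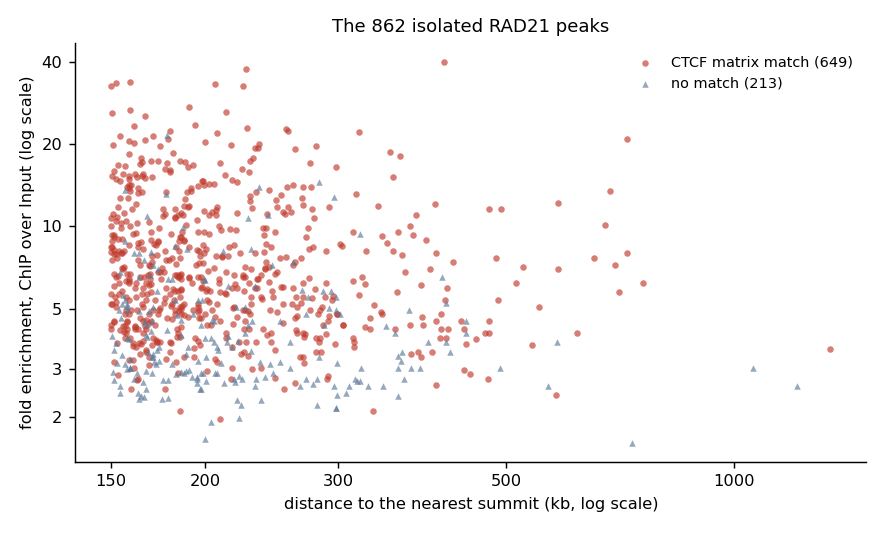
Fold enrichment of each of the 862 isolated peaks against the distance to its nearest summit in kb, both on log scales; circles mark the 649 peaks with a CTCF matrix match and triangles the 213 without. The unmatched peaks have a median of 3.49 against 6.52 for the matched ones, and the highest peak, at 40.1, stands 414 kb from its nearest summit.

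The number of ChIP fragments at the summit had a median of 43 for members and 49 for other peaks. The local background stood at its floor of 5.90 fragments for 48.8% of members and 29.8% of other peaks, so fold differences of these members followed the ChIP fragments alone. In 3.25% of members the background reached 2 times this floor or more. The members' median width was 389.5 bp.

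Fold enrichment was set beside the degree of isolation. Among members with the nearest summit at 150 to 200 kb the median was 6.09 (5.51 to 6.52, n = 447), at 200 to 300 kb it was 5.51 (5.07 to 5.94, n = 290) and at 300 to 500 kb it was 4.49 (4.20 to 4.93, n = 103). The 22 members beyond 500 kb had a median of 6.00 with an interval of 3.57 to 7.68 that spans all the other medians. These medians are a description, as the rule used the distance. The share with a CTCF matrix match stayed between 71.8% and 77.3% in these 4 classes.

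Reference sequence took no part in the choice of members. A CTCF matrix match within 50 bp of the summit was found for 649 of 862 isolated peaks (75.3%, 95% Wilson interval 72.3 to 78.1) and for 67.3% of other peaks (66.9 to 67.7). The difference was 7.99 percentage points (Newcombe interval 4.98 to 10.8). Members and other peaks differed in location, with 7.66% and 24.3% within 1 kb of a transcription start (promoters). At promoters the match shares were 62.1% and 51.5% (interval of the difference -1.43 to 21.4). In introns they were 77.3% and 74.6% (-1.84 to 6.8), and between genes 74.9% and 69.5% (0.955 to 9.36). All 12 members in exons had a match, against 74.3% of other peaks (1.42 to 27.3). The part of location in the whole difference was not tested. In control windows 5 kb to either side of the summit, 1.86% of windows passed for members and 5.00% for other peaks, where the threshold was set. Intervals of this kind cover counting error over peaks and not the variation between libraries, which 1 library cannot show.

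The stricter exact consensus gave the same order at a lower level. It was found at 124 members (14.4%, 12.2 to 16.9) and at 11.4% of other peaks, and the interval of the difference ran from 0.798 to 5.51 points. With 1 mismatch allowed, the shares were 49.5% and 38.3%. Among the 10427 other peaks that lay over 100 kb from any protein-coding start, which resemble the members in this respect, the matrix share was 63.3%. That group had copied summit sequence in 18.2% of peaks and a background of 2 times the floor or more in 15.0%, against 4.52% and 3.25% of members, and the part of these in its share was not tested.

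The share rose with fold enrichment in both classes of peaks, and the interval of the matrix difference excluded 0 at 1 level. At a fold enrichment of 3 to 5, 184 of 274 members (67.2%) and 54.0% of other peaks had a match, a difference of 13.2 points (7.36 to 18.5). Below 3, the shares were 23.1% and 19.5%, with a difference between -3.94 and 13.2 points, while for the exact consensus they were 3.30% and 0.896% (0.221 to 8.36). From 5 to 10 they were 86.3% and 83.7% (-1.62 to 6.00), from 10 to 20 they were 94.6% and 92.5%, and at 20 or more 28 of 29 members (96.6%) and 95.9% of other peaks had one. When peaks were required to have a q-value of at most 1e-05 and isolation was determined anew, the shares were 79.7% and 78.3%, and the interval of the difference reached from -1.21 to 3.83 points. This interval includes 0, so no difference between members and other peaks is read at that threshold. At a q-value of at most 0.001 the shares were 76.8% and 72.1%, with an interval of 1.91 to 7.41 points.

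**Figure D3:**
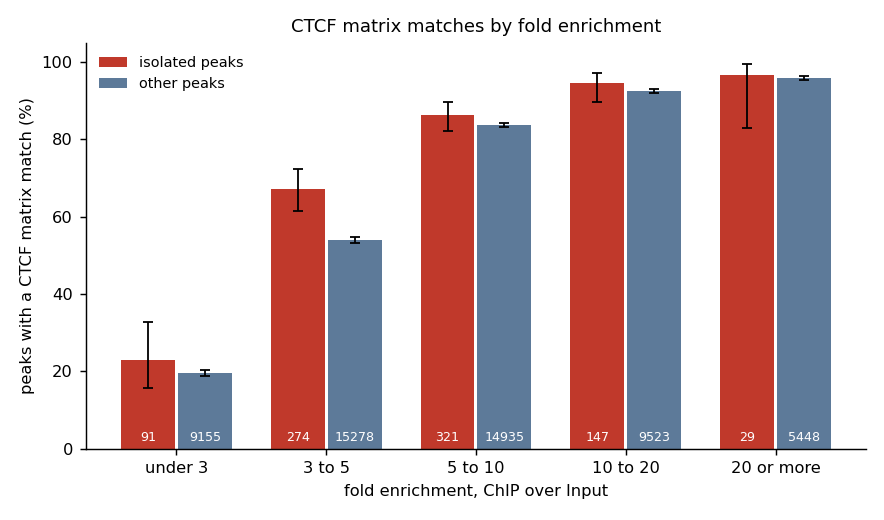
Share of peaks with a CTCF matrix match in 5 classes of fold enrichment for isolated and other peaks; error bars are 95% Wilson intervals and the white numbers give the peaks in each bar. The share climbs from 23.1% to 96.6% for isolated peaks, and the bars part beyond their intervals only at 3 to 5.

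Members with and without a match differed in height. The 649 matched members had a median fold enrichment of 6.52 (6.23 to 6.81) and the 213 unmatched ones 3.49 (3.22 to 3.82). The 3 strongest members without a match, named after their values were seen, were a peak in an intron of the dynein gene DNAH11 at 21.7, a peak whose nearest protein-coding start was that of POT1 at 14.5, and the promoter peak of HS3ST5, a heparan sulfate sulfotransferase gene, at 13.9.

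The position of the site relative to the summit was alike in both classes of peaks. The site centre lay at a median of 15.5 bp from the summit for members and for other peaks, and within 20 bp for 64.3% of the matched members. Read along the strand of the motif, the summit fell on the 3′ side of the site centre in 454 of 649 members (69.95%, 66.3 to 73.4) and in 70.4% of other peaks. The median displacement was 11.5 bp toward 3′ (9.5 to 12.5) for members and 10.5 bp for other peaks. In all 10 peaks whose sequences are printed above with a site, the summit lay on this side, by 0.5 to 26.5 bp.

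The displacement was clearer in stronger peaks. With a fold enrichment of 5 or more, 75.7% of matched members had the summit on the 3′ side (71.5 to 79.4), against 57.6% below 5 (50.7 to 64.1). Other peaks showed 74.8% and 58.8% in the same classes. The motif lay on the plus strand in 303 of the 649 members (46.7%).

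Pairs of neighbouring summits that both had a matrix match were classed by the strands of their sites. Sites that pointed toward each other made up 17.6% of pairs up to 20 kb apart, 22.97% at 20 to 50 kb, 28.0% at 50 to 150 kb and 32.1% of the 2099 pairs over 150 kb apart. Among the 840 pairs over 150 kb with at least 1 isolated peak, 246 converged (29.3%, 26.3 to 32.5), 168 diverged (interval 17.4% to 22.8%) and 426 had both sites on the same strand. Divergent pairs made up 27.9% up to 20 kb, 26.1% at 20 to 50 kb, 21.9% at 50 to 150 kb and 18.1% of all pairs over 150 kb. Convergent pairs thus exceeded divergent ones from 50 kb on, and this was not particular to the pairs with an isolated peak. Pairs that share a peak are not independent.

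Annotation showed where the members were. With a summit within 1 kb of a transcription start counted as a promoter, 66 members were at promoters (7.66%, 6.06 to 9.63), 12 in exons (1.39%), 366 in introns (42.5%) and 418 between genes (48.5%). Other peaks had 24.3%, 5.27%, 38.1% and 32.3%. The difference at promoters was -16.7 points (-18.3 to -14.7). Among the 10427 other peaks over 100 kb from a protein-coding start, 7.16% were at promoters. The interval of that difference ran from -1.18 to 2.52 points. Between genes lay 58.6% of that group, more than the share of members. By its definition the group has no protein-coding promoters.

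Members lay farther from protein-coding starts than other peaks. The median distance to a protein-coding start was 269.5 kb (243 to 305), against 15.5 kb for other peaks, and it exceeded 500 kb for 258 members (29.9%) and 5.35% of other peaks. A protein-coding gene covered the summit in 237 members (27.5%) and 49.1% of other peaks. In the 300 kb around the summit, 697 members (80.9%, 78.1 to 83.3) had no protein-coding start at all, against 21.1% of other peaks and 38.7% of 9209 tiles of 300 kb laid over the autosomes. Among the other peaks over 100 kb from a protein-coding start, a group chosen by that distance, the share was 81.6%. The distance exceeded 500 kb for 27.9% of that group. A protein-coding gene covered the summit in 10.3% of the group, a smaller share than among members. As many RAD21 peaks lie at promoters, a window chosen for having no second summit has fewer starts in part by the rule itself.

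The surroundings were AT-rich. The GC content of the 300 kb around members had a median of 36.6% (36.5 to 36.8) with quartiles of 35.3% and 38.1%, beside 43.3% around other peaks and 39.97% in the tiles. In the 100 bp to either side of the summit the GC content was higher, at a median of 44.8% for members and 53.7% for other peaks.

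**Figure D4:**
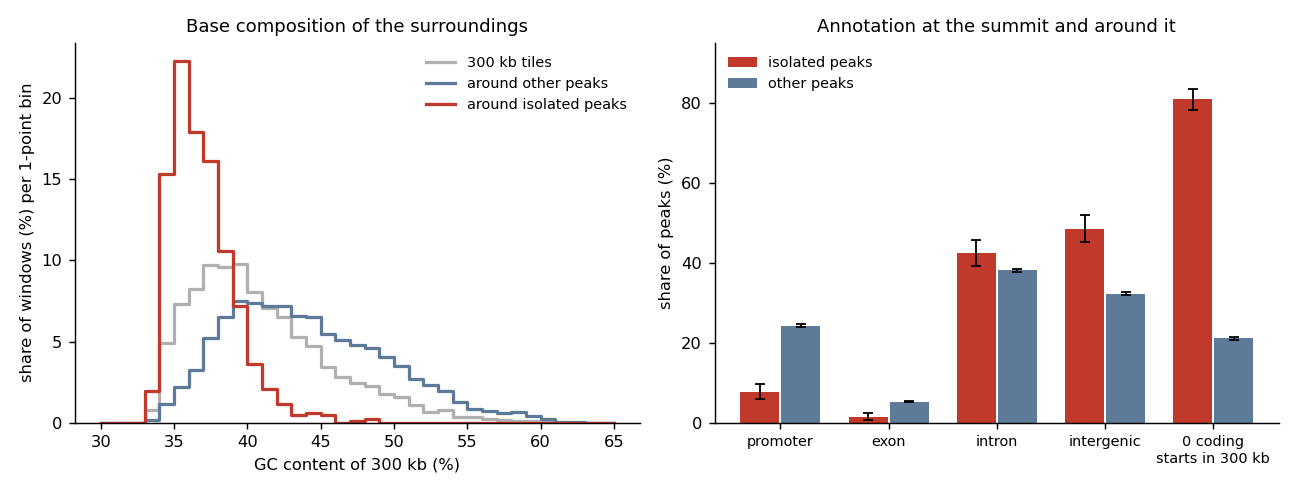
Left, share of 300 kb windows by GC content around isolated peaks, around other peaks and in tiles of the autosomes. Right, share of isolated and other peaks in each annotation class and with 0 protein-coding starts in 300 kb, with 95% Wilson intervals; 80.9% of isolated peaks and 21.1% of other peaks are in the last class.

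CTCF consensus matches were sparse in the reference sequence of these stretches. The merged 300 kb windows covered 242.8 Mb, or 8.81% of the autosomal sequence, and held 324 exact matches, 1.33 per Mb (exact Poisson interval 1.19 to 1.49), against 3.82 per Mb on all autosomes. In 2194 tiles with a GC content between the quartiles of the windows the density was 2.03 per Mb. A RAD21 summit lay within 100 bp of 131 of the 324 matches (40.4%), of 63.2% of matches on all autosomes and of 56.6% in the tiles of like GC content. Since the windows were picked for having no second summit, both numbers are set in part by the rule. The matches without a summit numbered 193, or 0.795 per Mb (0.687 to 0.915), against 0.881 (0.810 to 0.955) in tiles of like GC content and 1.41 on all autosomes.

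Of the 66 promoter members, the nearest start belonged to a protein-coding gene in 25 cases, to a lncRNA gene in 25 and to other gene types in the rest. Among the strongest were those at TTC28 (33.4), at the RPL12P38 pseudogene near CHCT1 (26.1), at an unnamed lncRNA gene in an olfactory receptor cluster near OR2L8 (22.7) and at APP, which encodes the amyloid precursor protein, with the start of its divergent transcript APP-DT 19 bp from the summit (17.0). All 4 had a CTCF matrix match.

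The 25 at protein-coding starts had a median fold enrichment of 4.33 and a lowest value of 2.53, and the 9323 other peaks at such starts had a median of 3.91. A CTCF matrix match was found in 9 of them (interval 20.2% to 55.5%), and in 47.8% of the other peaks of that kind, a value within this interval. The matched ones included NR3C1, the glucocorticoid receptor gene, at 12.7, KCND2, a potassium channel gene with an exact consensus, at 10.8, and GRIA4, a glutamate receptor gene, at 5.98. The unmatched ones included MEF2C, a transcription factor gene, at 4.63, PRDM9, the meiotic histone methyltransferase, at 4.93, and CXCR4, a chemokine receptor gene, at 2.99. These 6 genes were picked after their values were seen. Among promoter members the GC content of the 100 bp to either side of the summit had a median of 56.2%.

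Genes of great length held a part of the members. The body of 93 of 309 protein-coding genes of 500 kb or longer (30.1%, 25.3 to 35.4) contained an isolated summit, against 1.05% of all 19111 protein-coding genes. Per 10 Mb of gene the long genes had 5.16 isolated summits and 113 peaks in all, and all protein-coding genes had 1.84 and 220.3. Counted gene by gene, the long genes held 133 isolated summits in 257.5 Mb, beside 862 members in 2756 Mb of autosomal sequence. Where peaks are sparse the rule itself leaves more of them isolated, so these rates are a description. The strongest member in such a gene was that of TTC28, followed, among genes not on the neuronal list, by those of ZFPM2 at 19.95, DGKB at 17.8, MAPK10 at 16.1, EXOC6B at 15.1 and GRIP1 at 14.9.

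A list of 107 genes was put together around neuronal adhesion and synapses, with families such as contactins, cadherins, neurexins and glutamate receptors. It also has some genes of other kinds, such as GALNTL6, SGCZ and the glypican gene GPC5. The list contained 39 genes (36.4%, 27.9 to 45.9) with an isolated summit in the body and 63 such summits. Many of these genes are very long. Of the 68 that reached 500 kb, 35 held one (51.5%, 39.8 to 62.9), with 7.43 isolated summits per 10 Mb, and of the 241 equally long genes outside the list, 58 did (24.1%, 19.1 to 29.8), with 4.15 per 10 Mb. The listed long genes had a median length of 1117 kb and the others 661 kb, and the listed genes had fewer peaks of any kind, 81.9 against 127 per 10 Mb. The list was drawn up with earlier results of these data known, so its share is a description.

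NRG3, which encodes a neuregulin that binds ERBB4, held 5 isolated summits and no other peak in 1112 kb. Their fold enrichments from left to right on the chromosome were 5.51, 10.7, 3.36, 4.78 and 6.96, and the second and the last had no CTCF matrix match. PTPRD, a receptor tyrosine phosphatase gene, held 4 isolated summits among 12 peaks, with fold enrichments of 4.20 to 5.80 and a match at each. LINGO2, THSD7B, ESRRG and SEMA6D held 3 each and no other peak, and LRRC4C held 3 of 6. The longest genes with 2 were CNTNAP2, with 14 peaks in all, CSMD1 with 10 and LRP1B with 12. The 3 in LINGO2 had 8.13, 7.54 and 5.94, and those in LRRC4C had 11.7, 5.36 and 5.21, all with a match.

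Higher single values in listed genes came from GALNTL6 at 17.2 and SGCZ at 16.8, which are among the listed genes of other kinds. Next were the metabotropic glutamate receptor gene GRM5 at 16.2, PCDH15 at 15.2, the α-catenin gene CTNNA2 at 14.5 and the netrin receptor gene DCC at 12.6. A second summit in SGCZ had 12.1, and one in CNTNAP2 had 11.01. All of these held a CTCF matrix match and lay in introns.

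Short genes could hold few members. No isolated summit lay in any of 399 olfactory receptor genes, which have a median length of 2.38 kb, and the rate of 1.84 isolated summits per 10 Mb over all protein-coding genes leaves little room for one in their 2.63 Mb. Of these genes, 25 (6.27%, 4.28 to 9.09) started within 150 kb of one, compared with 1.29% of all protein-coding genes. As olfactory receptor genes stand in clusters, several share 1 peak, and 10 of the 25 had the peak near OR2L8 in common. Of 42 genes of colon epithelium and WNT signalling, 0 held an isolated summit or started within 150 kb of one, which allows a share of up to 8.38%. This range includes the shares over all protein-coding genes, of which 1.05% held one and 1.29% started near one.

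Other short motifs were searched for within 100 bp of the summit on both strands, with windows 5 kb to either side as control. The AP-1 motif TGANTCA was found at 5.10% of members and 7.05% of their control windows, the TEAD motif GGAATGT at 3.25% and 3.09%, and the TCF/LEF motif CTTTGAT at 1.51% and 3.85%. For other peaks and their control windows the shares were 5.45% and 5.80% for AP-1, 2.75% and 3.18% for TEAD and 2.05% and 2.82% for TCF/LEF. The part of base composition in these shares was not tested. CCAAT was found at 27.4% and 30.5%, and for other peaks at 19.2% and 24.2%. The cAMP response element was searched as its 8-letter palindrome. It was found at only 2 members (0.232%, 0.0637 to 0.842) and 1 control window (0.0583%, 0.0103 to 0.329). The GC box GGGCGG was found at 48 members (5.57%, 4.23 to 7.31) and 1.11% of control windows, and at 15.4% of other peaks and 5.06% of theirs. GC box letters can overlap a CTCF match, and among the members without a match the share was 6.57%.

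A few members stood in copied sequence. The 100 bases around the summit had at least 1 further exact copy in the assembly for 39 members (4.52%) and 6.50% of other peaks. These 39 had a median fold enrichment of 2.80, 13 of them had a CTCF matrix match, and 30 lay within 1 Mb of an assembly gap. They include 4 of the 5 members of lowest fold enrichment, on chromosomes 19, 12, 17 and 18, with 1.62, 1.67, 1.92 and 1.99 and backgrounds of 10.1, 8.35, 2.57 and 4.17 times the floor. The fifth, in an intron of CCSER1 with 1.97 and a background of 2.41 times the floor, had no further exact copy. The part of read mapping in these values was not tested.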

How the data were processed

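The deposited peak list of the wild-type RAD21 ChIP library was analysed. The authors trimmed reads with Trimmomatic 0.39, aligned them to the analysis set of GRCh38 with Bowtie2 2.5.3, took out duplicates with Picard and called peaks with MACS2 2.2.9.1 against Input at a q-value threshold of 0.05. Which Input was used is not given in the sources used here. The only Input library of the series came from HCT116_RAD21_AID cells incubated with auxins. Whether the wild-type fold enrichments are ratios over this Input of other cells is therefore not known. The deposited columns give the summit, the fold enrichment (a ratio over local background), the −log10 p-value and the −log10 q-value; the authors' whole-number score was not used. ChIP fragments and background were recovered from fold and p-value, and fell within 0.05 of a whole number for all 862 members. The totals of reads were not read from the files, so depth is given per summit.

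Sequence came from GRCh38 and genes from GENCODE version 44; 0 peaks passed a sequence end. CTCF was scored by its 12-letter consensus and by a 20-base matrix trained on 20812 sites at non-isolated peaks, with the threshold passed by 5% of control windows. The recovery of fragment numbers, the choice of isolated summits and the consensus search were tested on simulated data. The matrix, the annotation classes, the strand measures and the copy counts were not tested in this way. The software was samtools 1.23.1, scipy 1.17.1, pandas 2.3.3, numpy 2.4.6, numba 0.67.0, matplotlib 3.10.9 and Python 3.11.15.

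The members and gene lists were chosen with earlier results of these data known. Peaks were named by rule: the 10 highest, the 5 farthest from a neighbour, the 5 lowest, the 5 highest at promoters, 3 on each side of the limit, the 10 genes with the most isolated summits and the 10 highest per list. Some peaks and genes that this rule names are not reported here. The end peaks of the longest stretch and the runs were added to these. With 1 library no test was made. Alternatives were other limits, q-values, thresholds, annotations and windows; leaving out summits in copied sequence was added after seeing the data.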

Additional observations from a re-analysis of the deposited data

How the results depend on the processing

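The number of isolated peaks followed the limit, with 2073 at 100 kb and 415 at 200 kb. At 100 kb the promoter share was 10.1%, the intergenic share 43.2%, the median GC content 37.3%, the share without a protein-coding start 68.5% and the consensus density 1.87 per Mb. At 200 kb these were 5.30%, 54.5%, 36.2% and 85.1%, and the median fold enrichment was 5.25. With a q-value of at most 1e-05, which left fewer neighbours and gave 1004 isolated peaks, the median fold enrichment was 6.18, the matrix share 79.7%, the GC content 36.9% and the share without a start 76.6%. A consensus with 1 mismatch was found at 49.5% of members, and a matrix threshold passed by 1% of controls at 61.0%. With protein-coding starts and genes alone, 3.48% of members were at promoters and 71.9% between genes. The remaining 50 recomputed values stayed within their 95% intervals or within 1.5 times the count. With 1 library per condition, nothing could be paired. Variation between cultures cannot be given, and peaks near the threshold rest on as few as 15 fragments.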

Other observations

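By the same rule, 117 of 1135 peaks on the X chromosome were isolated, with a median fold enrichment of 5.22, and 101 of them had a CTCF matrix match (86.3%, 78.9 to 91.4). On the Y chromosome 4 of 61 peaks were isolated, and 1 had a match. These chromosomes entered no comparison.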
